A study of Homo sapiens with 3 samples.

Results

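A pair of libraries of polyadenylated RNA were set side by side, from the cell clones numbered 174 and 114, which are 2 of the 3 libraries of the series. Both clones came from HEK293, an adherent line derived from human embryonic kidney, and both carry the genotype label partial KANK1-KO with genome editing as the treatment. Per the series' design text, cells were lipofected with a plasmid for Cas9 and a guide that lies just past the first ATG of KANK1, and were then cultured for 3 days. The third library, labelled control with no treatment, is unedited HEK293 and its value is given beside those of the clones. Each group is 1 library and each clone is a single line, so differences between clones that come from the edit, from the cell each line grew from or from the culture cannot be told apart. Of 26237 rows in the deposited tables, 12597 genes were compared. These had a mean of at least 1 FPKM (fragments per kilobase of transcript, scaled to the sequenced total) over the 2 clones, after 28 rows that carry a date in place of a gene symbol and 383 rows of small nucleolar and Cajal body RNAs were left out. The change of a gene is log2 of (FPKM + 1) in clone 174 over (FPKM + 1) in clone 114, which understates the change of low genes. With 1 library a clone there is no replicate check, so no p-value was computed and every difference is a description of these libraries. Whether the libraries came from separate cultures is not given in the sources used here.

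KANK1 encodes a scaffold protein that sits beside focal adhesions, binds talin and recruits the cortical complex that captures microtubule ends. A line grown from single cells inherits that cell's chromosome content and its pattern of silent and active genes. HEK293 is a line with an unstable, more than diploid karyotype that expresses epithelial, neural and kidney progenitor genes together.

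KANK1, the edited gene, was at 3.63 FPKM in clone 114 and 3.43 in clone 174, with 4.49 in the control. The clones thus stood close to each other at the edited gene, with a change of -0.06. An edited transcript can still be counted, so this level does not show which alleles a clone carries. KANK2, the paralog with the highest level of the family, was at 14.8 FPKM in clone 114 and 8.92 in clone 174, with 7.94 in the control. KANK3 stayed below the level compared, at 0.967 and 0.954 FPKM, and KANK4 at 0.0679 and 0.212. Of the 12 genes listed for the KANK family and its cortical partners, 10 were compared, and 0 differed by 2-fold. Their median change was -0.03, against -0.01 over all genes compared.

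The 2 clones were alike in most of their expressed genes: 79.9% of the 12597 genes differed by less than 1.5-fold. Past 2-fold, clone 174 had 278 genes (2.21%) above clone 114 and 444 (3.52%) below it, so 5.73% passed 2-fold in either direction. A change of 4-fold or more was seen for 56 genes on the higher side and 65 on the lower, and of 8-fold or more for 16 and 26. Differences were more frequent at low levels: 5.64% of 1934 genes with a mean of 1 to 3 FPKM were higher and 6.05% lower, against 0.781% and 1.69% of 768 genes at 100 FPKM or more. The control lay between the 2 clones for 199 of the 278 higher genes and 380 of the 444 lower ones. On the log2 scale the control was nearer to clone 114 for 190 of the higher genes and nearer to clone 174 for 88. For the lower genes it was nearer to clone 174 for 234 and to clone 114 for 210, close to an even split. The matching counts over all genes compared were not computed, so nothing is read from the counts between the clones.

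**Figure D1:**
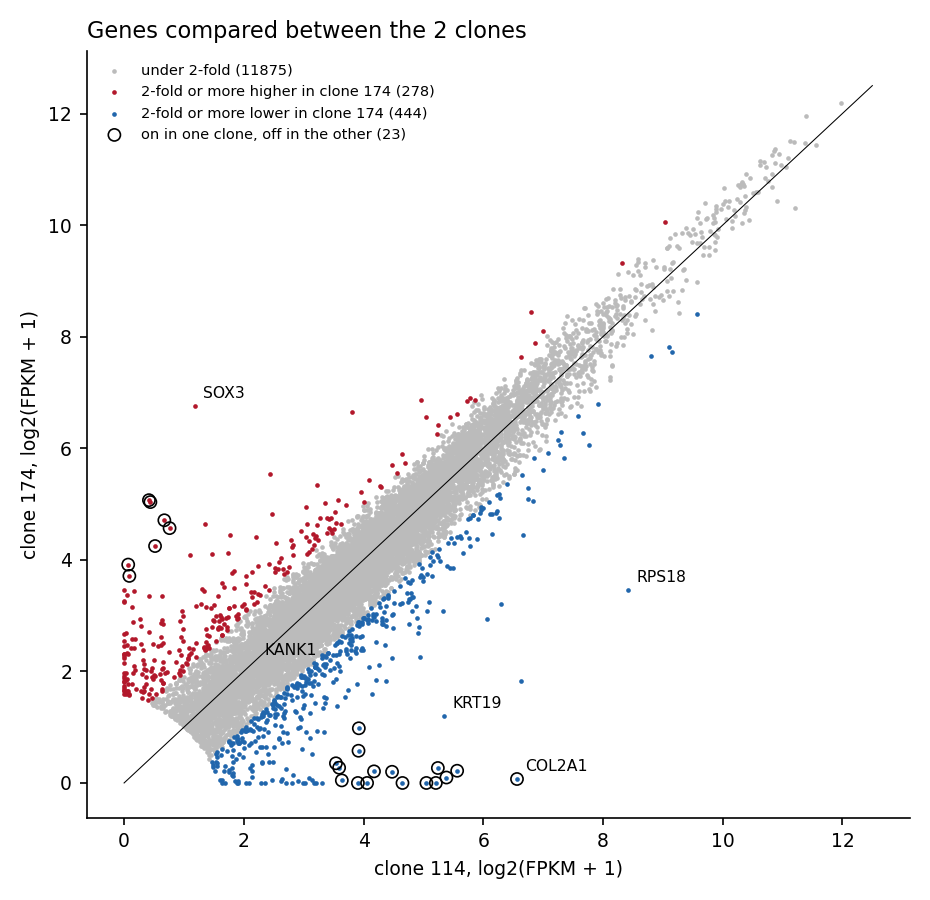
Each point is 1 of the 12597 genes compared, with log2(FPKM + 1) in clone 114 on the horizontal and in clone 174 on the vertical axis, 1 library each. Genes past 2-fold are coloured, 278 higher and 444 lower in clone 174, and circles mark the 23 genes on in one clone and off in the other. COL2A1 and SOX3 lie farthest from the diagonal and KANK1 lies near it.

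Both clones were close in depth. In genes with 1 annotated transcript and low FPKM, values were fitted to steps that stand for whole fragments. The step was chosen to put the most genes within 0.1 of a whole number, so the shares are no separate check of it. They were 72.0% of 257 genes in clone 114 and 70.0% of 280 in clone 174. The fitted steps put the depth behind the deposited values near 16900000 fragments in clone 114 and 17200000 in clone 174, if fragments are 200 bases long. Among low genes present in both clones, the most frequent ratio of clone 174 to clone 114 was 0.987, the worth of 1 fragment in one against the other. The cell type label was checked on 12 marker genes chosen for HEK293: clone 114 had 9 at 1 FPKM or more, clone 174 had 11 and the unedited control 8. Of the 10 of these compared, 4 were at least 2-fold higher in clone 174 and 1 lower. Vimentin (VIM) was at 445 and 201 FPKM and the keratin gene KRT18 at 94.1 and 152, while NEFM was below 1 FPKM in both. The blood cell markers PTPRC, CD3E and HBB and the endothelial markers PECAM1 and TEK were listed at 0 in both clones. Of the 5 fibroblast markers, summed at 3.86 FPKM in clone 114 and 5.90 in clone 174, COL1A1 was at 2.43 and 4.22, LUM at 0.961 and 1.13, and DCN at 0 and 0.141. The 4 keratinocyte and hepatocyte markers summed to 0.420 and 0.0831 FPKM, with KRT5 and KRT14 at 0 in both.

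A gene was called on at 10 FPKM or more and off below 1 FPKM. On that rule 7 genes (0.0556%) were on in clone 174 and off in clone 114. MGST1, a membrane-bound glutathione transferase of the endoplasmic reticulum and mitochondria, was at 32.6 FPKM in clone 174 and 0.333 in clone 114, with 5.53 in the control. TMEM47, which encodes a membrane protein of cell junctions, was at 31.8 and 0.356 FPKM, with 5.21 in the control. NELL2, a secreted glycoprotein of neurons, was at 25.2 and 0.594 FPKM, with 17.0 in the control. These 3 had the highest levels of the 7 in clone 174, and clone 114 stood below the control in all 3 while clone 174 stood above it. LINC00665, a long non-coding RNA gene, was at 22.7 FPKM in clone 174, 0.693 in clone 114 and 1.57 in the control. HTATIP2 was at 14.1, 0.0490 and 0.191 FPKM and RHOD, a small GTPase gene of endosome movement, at 12.1, 0.0631 and 0.909. For these last 2 the control was off as well, so clone 174 was the library that stood apart. RPL36A-HNRNPH2 is a read-through transcript of a pair of neighbouring genes that have their own entries. It was at 18.0, 0.431 and 7.01 FPKM, whereas RPL36A itself was at 480 FPKM in clone 174 and 423 in clone 114 and HNRNPH2 at 53.6 and 73.7, so how reads were shared among the 3 entries may bear on its value.

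The opposite state, on in clone 114 and off in clone 174, was found for 16 genes (0.127%). COL2A1, the collagen of cartilage, was at 93.6 FPKM in clone 114 and 0.0504 in clone 174, with 16.8 in the control. LCP1, which encodes L-plastin, an actin-bundling protein best known from blood cells, was at 46.3 and 0.164 FPKM, with 30.1 in the control. In COL2A1 and LCP1 clone 174 alone was off. CALCB, the gene of beta-CGRP, a vasodilator neuropeptide, was at 40.8 FPKM in clone 114 and 0.0699 in clone 174, and at 427 in the control. CALCB therefore formed a ladder, in which clone 114 kept a lower level than the control and clone 174 almost none. GAL, the gene of the neuropeptide galanin, was at 35.97 FPKM in clone 114, listed at 0 in clone 174 and at 9.66 in the control. FAM213A, a peroxiredoxin-like gene, was at 36.8, 0.204 and 19.6 FPKM in the same order. MAP7D2, whose product binds microtubules, was at 21.3, 0.149 and 5.86.

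WFDC2, a small secreted protein with whey acidic protein domains, was at 17.1 FPKM in clone 114, 0.155 in clone 174 and 5.33 in the control. MFAP2, a glycoprotein of elastic microfibrils, was at 15.7 FPKM in clone 114 and 4.30 in the control, and CDO1, the dioxygenase that opens cysteine breakdown, at 14.0 and 8.92. Both were listed at 0 in clone 174. PCDH10, a protocadherin of neural cell adhesion, was at 14.2, 0.973 and 27.7 FPKM in clone 114, clone 174 and the control. KHDC1 was at 14.1, 0.492 and 10.3. PLIN2, the coat protein of lipid droplets, was at 11.4, 0.0324 and 2.90 FPKM. MYD88, the adaptor of Toll-like and interleukin-1 receptors, was at 10.6, 0.277 and 5.64, and LOC102723828 at 11.1, 0.209 and 0.543. The last 2 entries need care: RNU6ATAC, a small nuclear RNA of the minor spliceosome, was listed at 32.1 FPKM in clone 114 and at 0 in clone 174 and the control. H3F3A, which encodes histone H3.3 and has many processed copies in the genome, was at 24.1 FPKM in clone 114 and 0 in both others. Another gene of the same histone, H3F3B, was at 190 and 231 FPKM in clones 114 and 174, and a 0 for a gene that every cell uses can be a failed estimate. Without these 2, 14 of the 16 remain, and of the 16 the control was on for 6, between the limits for 7 and off for 3. The off value was listed at 0 for 5 of these 16 genes and for 0 of the 7.

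**Figure D2:**
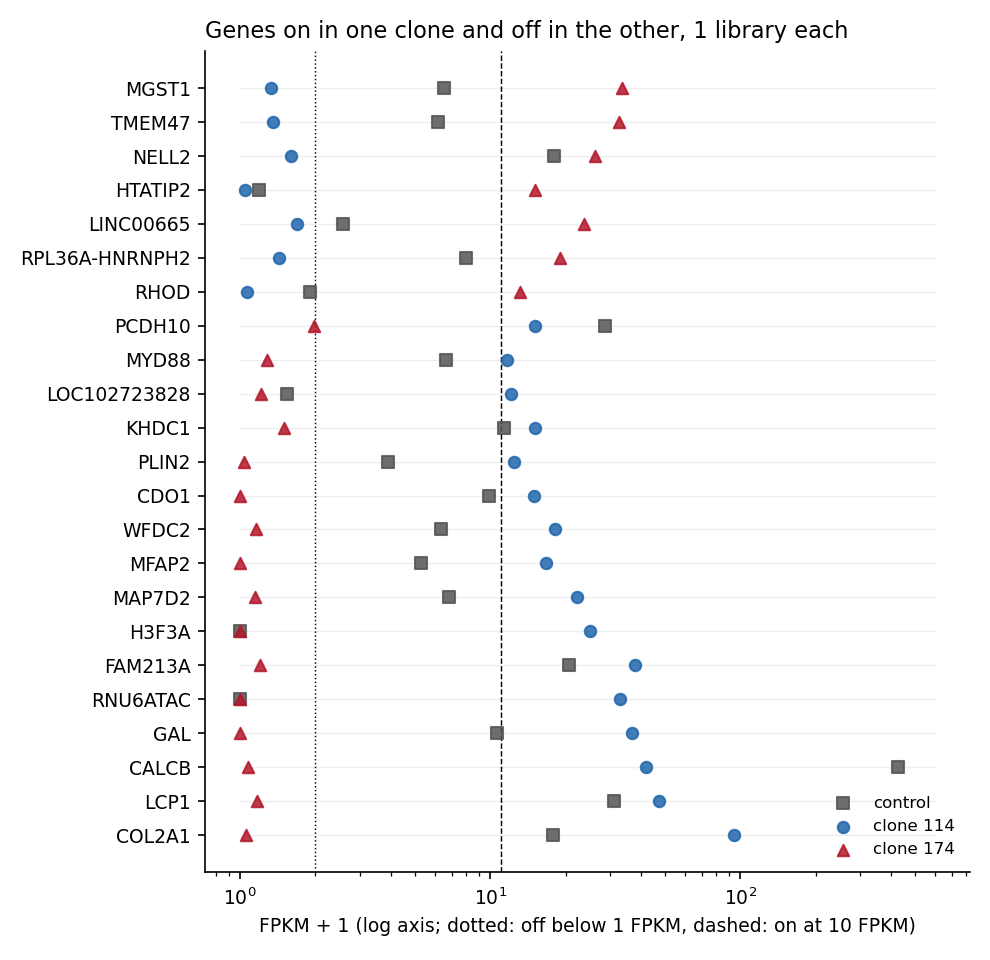
FPKM + 1 on a log axis for the 23 genes on in one clone and off in the other, with 1 point for each library (control, clone 114, clone 174). Clone 174 lies right of the dashed line of 10 FPKM for the upper 7 genes and left of the dotted line of 1 FPKM for the lower 16, and the control lies between the clones for most genes, with CALCB at 427 FPKM as the farthest exception.

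For the low values few fragments remained. The 0.0504 FPKM of COL2A1 in clone 174 stood for an estimated 3.7 to 4.2 fragments, depending on the transcript, against 6709 to 7704 in clone 114. The CALCB value stood for 1.0 to 2.5 fragments against 600 to 1419, and that of PLIN2 for 0.2 to 1.0 against 82 to 343. PCDH10 was the least silent, with 73.0 to 138 fragments in clone 174. The limits also left out near misses. ZNF83 missed by 1.14 FPKM in clone 114 against 16.0 in clone 174, KRT19 by 1.29 FPKM in clone 174 against 39.6 in clone 114, and RBP4 by 9.16 FPKM in clone 114 against 0.874 in clone 174.

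Genes with large changes outside the on and off sets included the largest on the higher side. SOX3, an X-linked transcription factor gene of neural progenitors and the pituitary, was at 107 FPKM in clone 174, 1.27 in clone 114 and 9.36 in the control (change 5.58). Clone 174 lay above and clone 114 below the control. LTBR, the lymphotoxin beta receptor gene, was at 9.27, 0.0317 and 0.237 FPKM (change 3.32), off in clone 114 but under the limit for on in clone 174. On the lower side COCH, which encodes the inner ear matrix protein cochlin, was at 2.54 FPKM in clone 174, 97.9 in clone 114 and 79.3 in the control (change -4.80). KRT19, a keratin of simple epithelia, was at 1.29, 39.6 and 4.07 FPKM (change -4.15). RPS18, a protein of the small ribosomal subunit, was at 9.94, 341 and 6.72 FPKM. Another gene of that subunit, RPS7, was at 1617 and 1036 FPKM in clones 174 and 114, so the RPS18 values may be failed estimates in clone 174 and the control.

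Neighbours of the switched genes were looked at next. Of the 23 genes, 22 could be placed in the RefSeq gene order, and each has a neighbour on both sides among the genes compared. Of those 44 neighbours, 1 was past 2-fold, a share near the 5.73% of all genes compared, so nothing particular to these genes is read from it. That was CXorf23 beside MAP7D2, at 0.881 FPKM in clone 174 and 4.30 in clone 114. Around COL2A1, TMEM106C was at 183 and 206 FPKM and SENP1 at 16.7 and 15.0 in clones 174 and 114. Around CALCB, CYP2R1 was at 5.69 and 7.14 FPKM and C11orf58 at 55.6 and 54.8. In these neighbours of COL2A1 and CALCB the clones stayed within 2-fold, as they did in most genes compared, so nothing is read from it.

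Some differences ran through neighbouring genes. In 11 stretches of the gene order, at least 3 consecutive genes among those compared were past 2-fold in the same direction, 48 genes in all. Chromosome 19 held 5 of these stretches, chromosome X 3, chromosome 7 2 and chromosome 6 1. The longest 2 on the higher side lay next to each other on chromosome 19, from ZNF880 to ZNF816, and with ZNF611 between them form a block of 14 compared genes. All 14 were higher in clone 174, 13 of them by 2-fold or more, with a median change of 1.92. Nearly all of these encode zinc finger proteins, many of which silence transposable elements and other repeats through the co-repressor TRIM28. ZNF83 was at 16.0 FPKM in clone 174, 1.14 in clone 114 and 2.71 in the control. ZNF320 was at 7.90, 0.0905 and 0.992 FPKM and ZNF816 at 6.03, 0.223 and 1.51. ZNF528 was at 11.1, 2.12 and 2.05 FPKM and ZNF28 at 12.9, 2.56 and 4.09, while ZNF611 was at 3.87, 1.87 and 3.08. In ZNF83, ZNF320, ZNF816 and ZNF28 clone 114 was below the control as well, and in ZNF528 it was level with it. Genes of such a family are alike in sequence, so reads may have been shared between them, and whether counting used the strand is not given for the antisense gene ZNF528-AS1.

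The sequences before the starts of these genes are shown because the genes differed together. RefSeq promoters (build GRCh38.p14) were held for 10 of the 14 genes, each read as the 250 bases up to the start. CG pairs, the sites of DNA methylation, are in capitals in the lines below, which give each sequence 5′ to 3′ on the strand of the gene.
ZNF83: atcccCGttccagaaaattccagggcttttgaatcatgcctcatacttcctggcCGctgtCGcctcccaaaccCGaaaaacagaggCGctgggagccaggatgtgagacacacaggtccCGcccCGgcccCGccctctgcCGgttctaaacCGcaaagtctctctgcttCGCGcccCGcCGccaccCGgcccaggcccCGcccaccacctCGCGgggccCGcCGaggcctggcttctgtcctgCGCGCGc
ZNF320: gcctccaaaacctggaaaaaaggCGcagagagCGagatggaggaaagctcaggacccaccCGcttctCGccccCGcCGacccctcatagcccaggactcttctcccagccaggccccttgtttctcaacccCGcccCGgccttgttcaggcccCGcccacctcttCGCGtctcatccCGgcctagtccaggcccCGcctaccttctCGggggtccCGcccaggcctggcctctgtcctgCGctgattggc
ZNF816: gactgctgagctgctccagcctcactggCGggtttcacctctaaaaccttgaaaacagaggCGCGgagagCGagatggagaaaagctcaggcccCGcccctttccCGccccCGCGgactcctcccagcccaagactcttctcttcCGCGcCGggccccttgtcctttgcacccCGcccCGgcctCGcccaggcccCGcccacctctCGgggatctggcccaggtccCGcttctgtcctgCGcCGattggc
The first lies at chr19:52690497-52690746, the second at chr19:52897695-52897944 and the third at chr19:52962882-52963131, all on the minus strand. They hold 23, 16 and 19 CG pairs. Over the 10 promoters the number ran from 16 to 24 with a median of 20. The median was 22 over the 10135 compared genes that have a promoter in the table, and 11 over all 27305 promoters of that length, 40.8% of which hold 16 or more and 93.6% at least 1. The median of the block was thus below that of the genes compared. The longest run of bases that at least 6 of the 10 hold on either strand is CCCGCCCCGGCC, of 12 bases, a search made after these genes were chosen. It stands in 6, the 3 shown and ZNF611 among them, although ZNF611 was the gene under 2-fold. The same letters stand in 8 (1.86%) of 430 ZNF promoters and in 0.692% of all 27305, and both sets include these 6. The match is a description of related sequences and DNA methylation was not measured.

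The block was the densest part of a wider pattern among zinc finger genes of chromosome 19. Of 429 genes named ZNF that were compared, 31 were at least 2-fold higher in clone 174 and 4 lower, with a median change of 0.17, against 2.21% and 3.52% over all genes. By chromosome, 30 of 208 on chromosome 19 (14.4%) were higher and 0 lower, with a median of 0.29. On the other chromosomes 1 of 221 was higher and 4 lower, with a median of 0.05. Genes of chromosome 19 outside the family had 20 of 688 higher and 19 lower, with a median of -0.04. That median pools the whole chromosome. In bins of 50 genes of any kind, chromosome 19 ran from -0.53 (MED26 to COPE) to 0.66 (CTU1 to TSEN34). Bins from CCDC61 to DHDH and from BAX to C19orf48 were at 0.23 and 0.24. Whether the pattern goes with the gene family or with place on the chromosome was not tested. Outside the block, ZNF667 was at 9.18 FPKM in clone 174, 0.546 in clone 114 and 0.704 in the control, ZNF347 at 4.38, 0.0888 and 0.167, and ZSCAN18 at 31.5, 9.19 and 8.84. For ZNF667, ZNF347 and ZSCAN18 the control was near clone 114. TRIM28 itself was at 286 FPKM in clone 174 and 247 in clone 114.

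On chromosome X a block went the other way. From FANCB to MAP7D2, 27 consecutive compared genes were all lower in clone 174, 16 of them by 2-fold or more, with a median change of -1.37. PDHA1, a subunit of pyruvate dehydrogenase, was at 33.1 FPKM in clone 174, 106 in clone 114 and 80.5 in the control. RBBP7, a histone-binding protein of several chromatin complexes, was at 344, 615 and 539 FPKM, and SCML2, a Polycomb-group gene, at 7.499, 39.1 and 20.7. AP1S2, a subunit of a clathrin adaptor, was at 55.9, 161 and 90.2. PIGA, which begins the synthesis of glycosyl anchors, was at 6.17 FPKM in clone 174, 18.9 in clone 114 and 19.3 in the control. In PDHA1, RBBP7, SCML2 and AP1S2 the control lay between the clones, and in PIGA it was level with clone 114. MAP7D2, at the end of the block, was among the 16 genes off in clone 174. Nearer to the start of the chromosome, 3 neighbours were higher in clone 174: CLCN4, a chloride-proton exchanger gene, at 12.51 and 2.49 FPKM, MID1, a ubiquitin ligase gene, at 28.1 and 10.5, and HCCS at 16.3 and 7.31. Over the whole of chromosome X, 20 of 422 genes were higher (4.74%) and 38 lower (9.005%), with a median of -0.02.

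The 250 bases before 2 genes that were off in clone 174 are shown, with CG pairs in capitals, since they differ most in CG content among the switched genes held in the table.
MAP7D2: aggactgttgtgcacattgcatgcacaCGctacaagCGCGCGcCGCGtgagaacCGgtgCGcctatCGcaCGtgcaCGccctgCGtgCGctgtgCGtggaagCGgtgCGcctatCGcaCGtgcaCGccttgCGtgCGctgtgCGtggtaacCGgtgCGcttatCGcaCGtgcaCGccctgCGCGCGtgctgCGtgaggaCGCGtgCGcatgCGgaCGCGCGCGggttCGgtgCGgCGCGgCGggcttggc
LCP1: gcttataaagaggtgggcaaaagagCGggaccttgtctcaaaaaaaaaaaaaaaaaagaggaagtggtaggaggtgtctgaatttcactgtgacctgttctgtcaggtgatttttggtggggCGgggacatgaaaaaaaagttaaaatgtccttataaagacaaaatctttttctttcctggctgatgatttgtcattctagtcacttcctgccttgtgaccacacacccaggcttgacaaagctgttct
The MAP7D2 sequence lies at chrX:20116908-20117157 and the LCP1 sequence at chr13:46182178-46182427, both on the minus strand, and they hold 44 and 2 CG pairs. Genes silent in clone 174 thus had starts both rich and poor in CG.

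**Figure D3:**
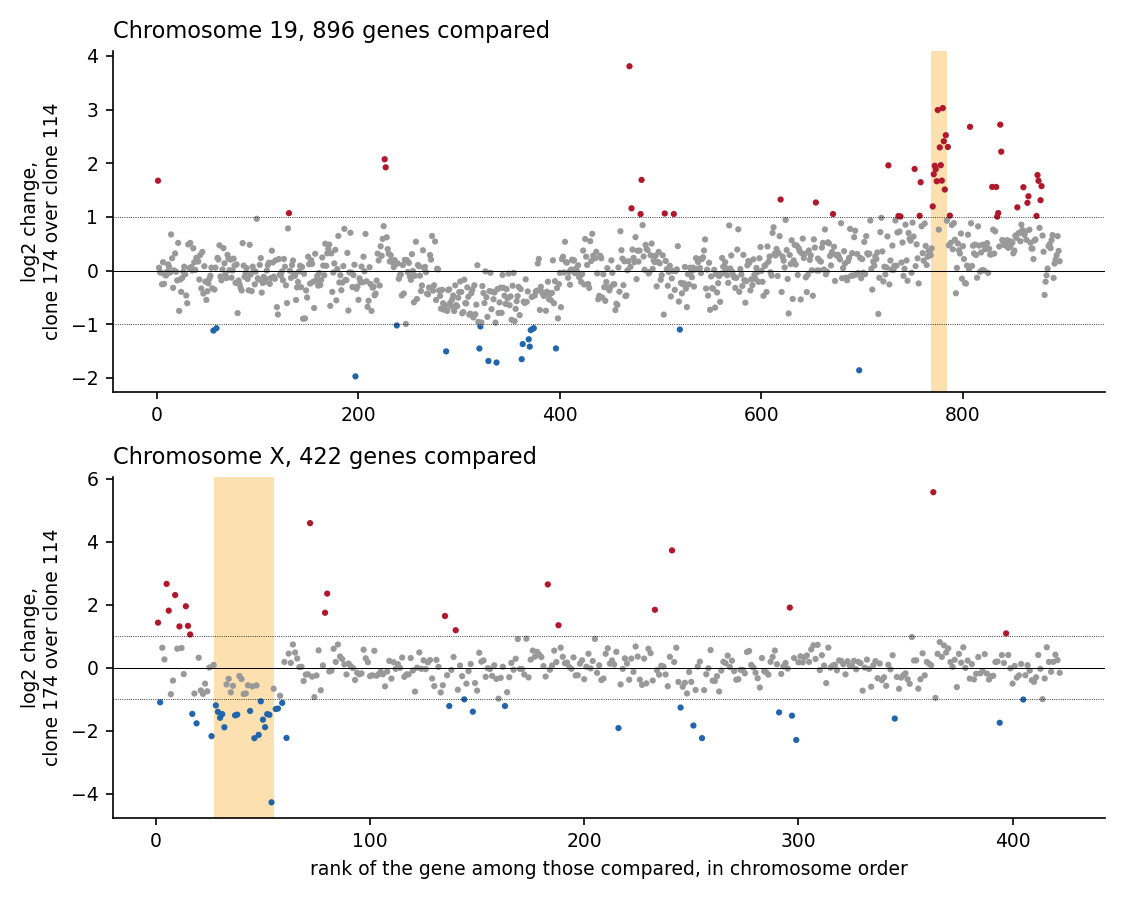
The log2 change of FPKM + 1 (clone 174 over clone 114) for each compared gene of chromosomes 19 and X, against its rank in chromosome order. Shading marks the block of 14 genes on chromosome 19, all above 0, and the block of 27 genes on chromosome X, all below 0; dotted lines mark 2-fold.

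Medians over chromosomes also differed, although some of the shifts covered only part of a chromosome. Chromosome 7 had the lowest median change, -0.62 over 605 genes (95% binomial interval over genes from -0.66 to -0.58), and 87 of its genes (14.4%) were at least 2-fold lower in clone 174 while 2 were higher. Against the same control library, the chromosome 7 median was 0.38 in clone 114 and -0.22 in clone 174. In 238 bins of 50 consecutive genes, the median was below -0.50 in 15, and 10 of these were among the 12 bins of chromosome 7. Of the genes on chromosome 7, HIBADH, an enzyme of valine breakdown, was at 18.0 FPKM in clone 174 and 53.9 in clone 114, TES, a focal adhesion protein gene, at 27.5 and 72.9, and HOXA13, a limb and urogenital factor gene, at 4.52 and 12.9. Chromosome 14 had a median of -0.37 and chromosome 3 of -0.36. The highest were chromosome 17 at 0.26, chromosome 2 at 0.24 and chromosome 5 at 0.21. Bins of 50 genes ranged from -0.80, from CLDN3 to SLC25A40 on chromosome 7, to 0.66, from CTU1 to TSEN34 on chromosome 19. Within chromosome 11, with a median of 0.12, they ran from -0.36 (ZNF195 to CTR9) to 0.25 (NARS2 to YAP1). Within chromosome 6, with a median of 0.04, they ran from -0.19 (CGA to SEC63) to 0.38 (PPIL1 to DNPH1). DNA copy number was not measured. Chromosomes 7 and X together held 125 of the 444 lower genes.

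**Figure D4:**
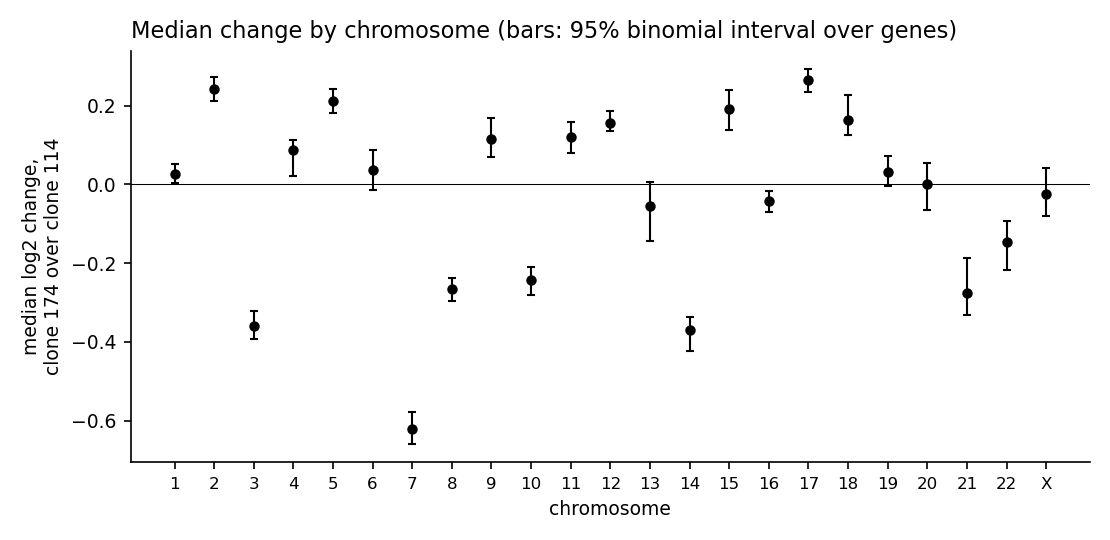
Median log2 change of FPKM + 1 (clone 174 over clone 114) over the genes compared on each chromosome, with bars for the 95% binomial interval of the median over genes, which are not replicates. Chromosome 7 lies lowest at -0.62, followed by chromosomes 14 and 3, and chromosome 17 highest at 0.26.

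The counts of gene lists that follow are to be read against 2.21% higher, 3.52% lower and 5.73% past 2-fold either way over all genes compared. Those shares pool all levels. At a mean of 1 to 3 FPKM they were 5.64% higher and 6.05% lower, and at 100 FPKM or more 0.781% and 1.69%. The lists were not matched for level or for chromosome. How far a list's share goes with its level, or with the chromosomes its members lie on, was not tested. Of 33 genes of neuropeptides, their processing and their receptors, 12 were compared: 4 were at least 2-fold lower in clone 174 and 1 higher (41.7% past 2-fold), with a median of -0.37. Besides CALCB and GAL, RAMP1, which turns the calcitonin-like receptor into a CGRP receptor, was at 5.99 FPKM in clone 114, listed at 0 in clone 174 and at 10.4 in the control. NPY, the neuropeptide Y gene, was at 4.77 FPKM in clone 114, 1.26 in clone 174 and 1.81 in the control. The peptide gene CALCB and the receptor partner gene RAMP1 were both highest in the control and lowest in clone 174. CALCRL, the receptor that RAMP1 binds, was below 1 FPKM in all libraries, at 0.0310 and 0.234 in clones 114 and 174. PCSK2, a convertase that cuts peptide precursors, went the other way, at 4.003 FPKM in clone 174, 0.04004 in clone 114 and 0.416 in the control.

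Neuronal genes were higher in clone 174 more often than lower: of 22 compared, 8 were at least 2-fold higher and 1 lower (40.9% past 2-fold), with a median change of 0.72. Beside NELL2, GAP43, a growth cone protein gene, was at 3.26 FPKM in clone 174, 0.118 in clone 114 and 0.849 in the control. SYP, the synaptic vesicle protein synaptophysin, was at 10.2, 2.58 and 4.69 FPKM, CNTNAP2, an axonal adhesion gene, at 9.72, 3.34 and 3.71, and INA, a neurofilament gene, at 22.3, 9.93 and 7.79. STMN3, a tubulin-binding protein gene, was at 92.9 FPKM in clone 174 and 42.6 in clone 114, and UCHL1, a neuronal ubiquitin hydrolase gene, at 198 and 98.1. SNCG, the gamma-synuclein gene, was the 1 lower, at 0.646 and 2.80. The progenitor marker NES was at 3.93 FPKM in clone 174 and 1.13 in clone 114, and SOX11, a neural SOX gene, at 4.34 and 0.119. In GAP43, SYP and SOX11 clone 114 lay below the control and clone 174 above it.

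Matrix genes leaned to clone 114. Of 47 interstitial matrix and remodelling genes, 26 were compared, 7 were at least 2-fold lower in clone 174 and 1 higher (30.8% past 2-fold against 5.73% over all genes), with a median of -0.51. Besides COL2A1, the lower genes included the collagen VI genes COL6A1, at 34.9 FPKM in clone 174 and 74.2 in clone 114, and COL6A2, at 17.3 and 37.1. The lysyl oxidase genes, whose products cross-link collagen, were lower in 3 cases: LOXL1 at 2.83 and 7.57 FPKM, LOXL3 at 0.773 and 3.70 and LOXL4 at 1.36 and 4.74. TNC, the tenascin C gene, was the 1 higher, at 10.5 and 4.14. Other cartilage collagen genes were low in both clones: COL9A2 was at 0.0670 FPKM in clone 174 and 1.79 in clone 114, lower in clone 174 as COL2A1 was, COL9A3 at 2.21 and 1.69, and COL11A1 listed at 0 in both. SOX9, the activator of COL2A1 in cartilage, was at 7.59 FPKM in clone 174 and 6.71 in clone 114.

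Of 25 basement membrane genes, 22 were compared, 3 were lower and 1 higher (18.2% past 2-fold against 5.73%), with a median of -0.30. NID2, a linker of laminin and collagen IV, was at 1.53 FPKM in clone 174, 9.06 in clone 114 and 7.63 in the control. LAMB2, a laminin chain gene, was at 15.6 and 36.9 FPKM in clones 174 and 114 and AGRN, a heparan sulphate proteoglycan gene, at 18.6 and 41.6. FN1, the fibronectin gene, stood against the others, at 93.2 FPKM in clone 174, 32.0 in clone 114 and 28.3 in the control. Of 26 integrin and focal adhesion genes compared, 2 were lower and 1 higher (11.5% past 2-fold), with a median of -0.46, and nothing is read from so few genes past 2-fold. The integrin genes ITGA4 and ITGA8 were at 0.291 and 0.663 FPKM in clone 174 against 4.37 and 5.67 in clone 114. PARVB, an adaptor between integrin-linked kinase and actin, was at 21.3 FPKM in clone 174, 9.42 in clone 114 and 3.70 in the control. Actin bundling and contractility genes had 3 of 21 lower and 1 higher (19.05% past 2-fold), with a median of -0.39. Here ACTA2, the smooth muscle actin gene, was at 6.68 FPKM in clone 174, 65.7 in clone 114 and 11.4 in the control, and PLS3, a plastin like LCP1, at 211, 566 and 670. FLNA, the actin cross-linker filamin A, was at 272, 127 and 297. The third plastin gene, PLS1, was at 14.0 and 15.0 FPKM, so the 3 plastin genes differed unequally between the clones. In a bulk library, fewer cells that express a gene and less RNA of it per cell cannot be told apart.

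Feedback genes of the ERK kinase pathway leaned to clone 114: of 16 compared, 5 were lower by 2-fold or more and 0 higher (31.3% past 2-fold against 5.73%), with a median of -0.42. ETV5, ETV4 and ETV1, transcription factor genes induced by that pathway, were at 1.01, 1.54 and 0.751 FPKM in clone 174 and at 6.70, 6.89 and 5.01 in clone 114. The phosphatase gene DUSP2 was at 0.867 and 5.63 FPKM and the inhibitor gene SPRY4 at 0.796 and 2.70. In the control these 5 were at 2.07 to 6.72 FPKM, nearer to clone 114 than to clone 174 for ETV4, ETV5, ETV1, DUSP2 and SPRY4. DUSP6, a main output of the pathway, differed little, at 3.30 and 4.55. Of 23 immediate early genes compared, 2 were lower and 2 higher, with a median of 0.01. EGR1 was at 4.33 FPKM in clone 174, 13.6 in clone 114 and 90.6 in the control, IER3 at 1.35 and 4.88 in clones 174 and 114, ATF3 at 36.3 and 14.6, and CTGF at 7.84 and 2.36.

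Replication-dependent histone genes, whose messages mostly end without the poly(A) tail on which the kit selects, were the list with the largest share past 2-fold among those with over 3 genes compared. Of 18 compared, 10 were higher in clone 174 and 0 lower (median 1.04). The 1 stretch on chromosome 6 given above, from HIST1H1C to HIST1H2BD, holds 5 of these 10. It lies in a bin of 50 genes, TMEM170B to BTN2A2, with a median of 0.37. Whether the histone counts go with the gene family or with place on the chromosome was not tested. HIST1H1C, a linker histone gene, was at 99.996 FPKM in clone 174, 13.0 in clone 114 and 53.6 in the control. HIST1H2BD was at 6.19, 0.573 and 1.41 FPKM, HIST3H2A at 26.0, 9.96 and 25.9 and HIST1H2BK at 75.5, 36.6 and 63.2. For HIST3H2A and HIST1H2BK the control was near clone 174. A linker histone gene outside that list, H1F0, was at 8.27 FPKM in clone 174, 77.7 in clone 114 and 25.01 in the control. How much of these differences rests on the selection of poly(A) tails was not tested. Of 31 genes of S phase entry and DNA replication, 2 were lower, the kinase inhibitor genes CDKN2A, at 76.6 and 201 FPKM in clones 174 and 114, and CDKN2B, at 4.12 and 13.5, and CCND2, a cyclin gene, was higher at 6.82 and 2.34 (median -0.10).

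Stress and redox genes were mixed. Unfolded protein and amino acid stress genes had 4 of 28 higher by 2-fold and 0 lower, with a median of 0.27. SLC3A2, the shared chain of several amino acid transporters, was at 114 FPKM in clone 174, 51.7 in clone 114 and 68.6 in the control. DDIT3, a stress transcription factor gene, was at 19.3, 7.51 and 8.21 FPKM, STC2 at 14.6, 5.01 and 14.6, and ATF5 at 38.6, 18.6 and 31.4. In STC2 and ATF5 the control was nearer to clone 174, and in DDIT3 and SLC3A2 nearer to clone 114. Of 18 glutathione transferase and NRF2 target genes, 3 were higher and 3 lower. With MGST1, HMOX1, the haem oxygenase gene, was higher, at 58.5 and 24.1 FPKM, as was NQO1, a quinone reductase gene, at 22.7 and 9.75. GSTO2, GSTM3 and GSTZ1, all glutathione transferase genes, were lower, at 0.196, 7.90 and 12.2 FPKM in clone 174 against 5.504, 18.4 and 30.3 in clone 114. Among 16 chaperone genes, HSPB8, of the small heat shock family, was the 1 past 2-fold, at 25.7 FPKM in clone 174, 9.46 in clone 114 and 1.32 in the control.

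The title of the series concerns centrosomes, and centrosome genes differed little between the clones. Among 23 genes for duplicating and elongating centrioles, 0 were past 2-fold, with a median of -0.07. CEP44 differed most, at 5.96 FPKM in clone 174, 10.8 in clone 114 and 7.47 in the control. Of 29 genes of the pericentriolar material, the linker and the appendages, 1 was lower: TUBGCP6, a subunit of the gamma-tubulin ring complex, at 8.96, 20.3 and 11.8 FPKM (median 0.03). Of 33 genes of mitosis and cytokinesis, 0 were past 2-fold (median 0.18), and the same held for 11 tubulin genes (median 0.01), 89 of the respiratory chain and ATP synthase (median 0.20) and 24 of cholesterol synthesis (median 0.10). These counts stand against 5.73% past 2-fold over all genes, of which a list of about 30 genes would hold 1 or 2. That share was smaller among genes of high level, as given above.

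Signalling and cell identity lists held single genes with large differences. Of those given here, the Wnt list (11.8% past 2-fold) and the TGF-beta and BMP list (10.7%) stood well above the 5.73% over all genes. The shares of the others given here lay near or below it. Some lists not given here had larger shares, from 13.2% for SOX and FOX genes to 36.4% for a claudin and cadherin list. Between these lay cell-cell junctions, keratins (6 compared), mesenchymal markers and interferon-stimulated genes. SFRP2, a secreted Wnt antagonist gene, was at 0.0328 FPKM in clone 174, 7.83 in clone 114 and 17.2 in the control, and it was 1 of 2 lower genes among 17 of the Wnt list. Of 28 genes of the TGF-beta and BMP list 3 were lower and 0 higher, of 16 Notch genes 1 was lower, and of 18 YAP and TEAD targets 1 was higher. Of 26 p53 targets 1 was lower, SPATA18, a gene of mitochondrial quality control, at 1.43 FPKM in clone 174 and 6.32 in clone 114. Of 34 HOX genes 1 was lower, the HOXA13 on chromosome 7 given above. Of 29 glycolysis and hypoxia genes 1 was higher, the glucose transporter gene SLC2A3, at 42.4 and 16.1 FPKM. Of 82 ribosomal protein genes 1 was past 2-fold, RPS18. No gene of the 79 cancer-testis antigens reached the level compared.

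**Figure D5:**
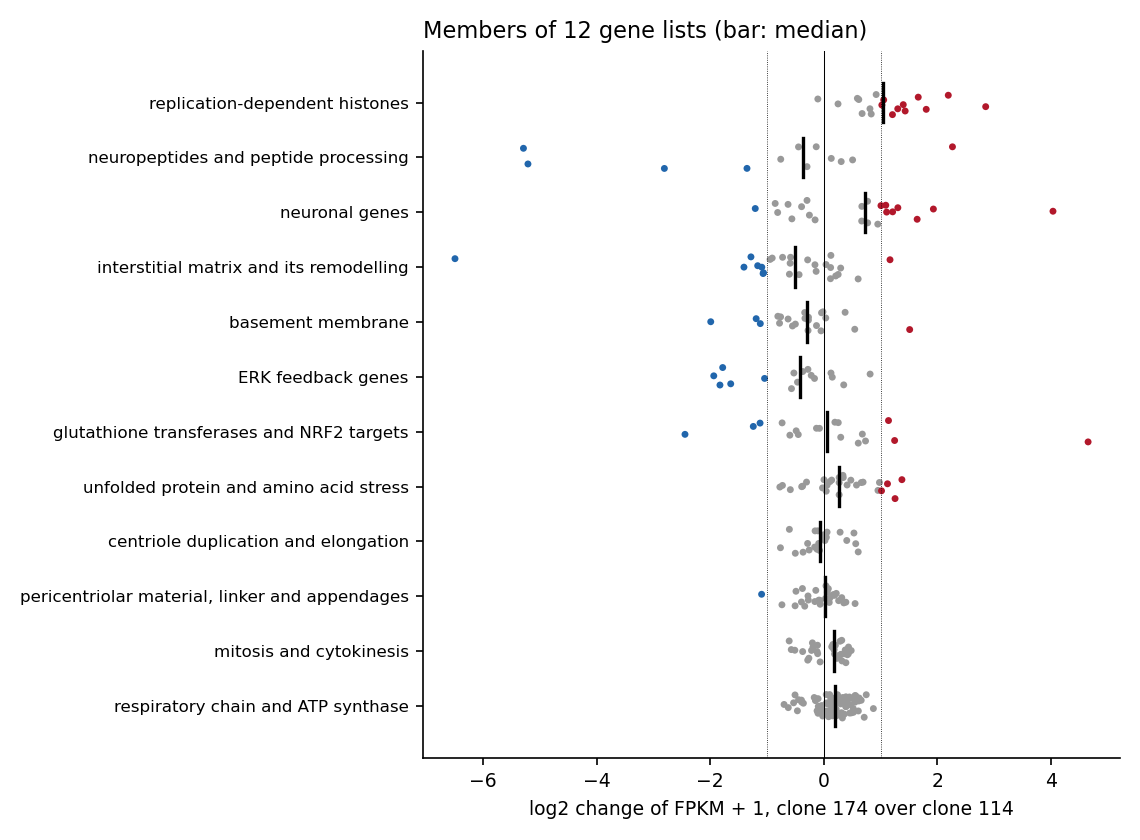
Log2 change of FPKM + 1 (clone 174 over clone 114) for each compared member of 12 gene lists, with a bar at the list's median; points past the dotted lines differ by 2-fold or more. Histone and neuronal genes lie to the right (medians 1.04 and 0.72), matrix genes to the left (median -0.51 for the interstitial list), and the centrosome and mitosis lists stay near 0.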

How the data were processed

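Poly(A) RNA of 3 HEK293 libraries (control, clone 114, clone 174) was prepared with a stranded mRNA kit, per the labels' protocols. Per the submitters' processing notes, cutadapt 2.10, HISAT2 2.2.1, Cuffdiff 2.2.1 and the build hg19 were used. The sources used here do not give their settings. The authors deposited FPKM per gene symbol and library, and their log2 ratio tables were not used. Genes whose clone mean reached 1 FPKM were compared as log2 of FPKM + 1, without date rows and small nucleolar RNAs. Named genes were those on in one clone (10 FPKM or more) and off in the other (below 1 FPKM), the 10 largest changes each way, the KANK genes, markers and up to 4 members of each list with the largest change; other genes were chosen after their values were seen. The gene lists and the comparison were chosen with earlier results of these data known. Of the compared genes, 98.7% matched RefSeq symbols, used for chromosome, order and promoter. The depth was estimated from steps in low FPKM values. The calculation was tested on simulated data. Python 3.11.15, pandas 2.3.3, numpy 2.4.6, scipy 1.17.1 and matplotlib 3.10.9 were used.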

Additional observations from a re-analysis of the deposited data

How the results depend on the processing

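The counts of genes past 2-fold (278 higher, 444 lower) depended on the pseudocount and the floor on low values. They were 432 and 759 with a pseudocount of 0.1 FPKM, 82 and 142 with a pseudocount of 5 FPKM, and 114 and 246 of 9307 genes whose mean reached 5 FPKM. Scaling moved the balance: of the genes past 2-fold, 38.5% were higher as deposited, 29.8% (235 against 554) with both clones scaled to the same sum, and 44.3% (310 against 390) after quantile normalization. Scaling to the same sum put the median over all genes at -0.09. Alternatives chosen after seeing the data gave 266 and 332 with each chromosome's median subtracted, 256 and 319 without chromosomes 7 and X, and 246 and 404 for protein-coding genes. The genes on in one clone and off in the other (7 and 16) became 4 and 8 with 20 FPKM as the limit for on, 19 and 30 with limits of 5 and 0.5 FPKM, and 13 and 22 with small nucleolar RNAs included. The direction turned for chromosome 1, from 0.027 to -0.055 (same sum), and for ribosomal protein genes, from 0.14 to -0.0051 (quantile); the cause was not tested. Of the 23 chromosome medians, 21 left their interval when both clones were scaled to the same sum, beside the one that turned, and 12 moved with a pseudocount of 5 FPKM; that of chromosome 7 ran from -0.70 to -0.42 over the alternatives. No paired analysis was possible because each clone is 1 library, and for the same reason no library could be left out. Genes near 1 FPKM rest on few fragments, and no interval between cultures can be given.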

Other observations

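Genes of retinoid handling, chosen after their values were seen, differed in both directions. CRABP1, a retinoic acid carrier gene, was at 16.3 FPKM in clone 174 and 2.34 in clone 114, and STRA6, the receptor gene for retinol-binding protein, at 5.93 and 1.99. CRABP2 was at 14.8 FPKM in clone 174 and 34.8 in clone 114, and the plasma carrier gene RBP4 at 0.874 and 9.16. The control was at 2.62 FPKM for CRABP1, 2.23 for STRA6, 4.74 for CRABP2 and 1.66 for RBP4, so it was nearer to clone 114 for CRABP1 and STRA6. CGA, the shared alpha chain of pituitary and placental hormones, was at 45.4 FPKM in clone 174, 4.43 in clone 114 and 4.13 in the control.

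Axon guidance genes were lower in clone 174 in 7 of 58 cases and higher in 2 (15.5% past 2-fold, against 5.73% of all genes compared), with a median change of -0.36. The co-receptor gene NRP1 was at 6.59 FPKM in clone 174 and 19.7 in clone 114, its ligand gene SEMA3A at 0.994 and 3.64, and the repellent ligand gene SLIT2 at 33.6 and 76.3. The 2 higher were UNC5D, a netrin receptor gene, at 2.15 FPKM in clone 174 and listed at 0 in clone 114, and the ephrin gene EFNA1, at 12.4 and 5.39. Outside that list, CRMP1, which acts below semaphorin receptors, was at 24.0 FPKM in clone 174, 1.56 in clone 114 and 15.2 in the control. Of 54 ion channel genes 5 were higher and 5 lower (18.5% past 2-fold), among the latter the calcium-permeable channel gene TRPC1, at 2.42 and 8.41 FPKM in clones 174 and 114. Of 209 solute carrier genes 8 were higher and 11 lower (9.09% past 2-fold). SLC35F1 was at 9.88 FPKM in clone 174, 0.116 in clone 114 and 11.4 in the control, and SLC8A1, a sodium-calcium exchanger gene, at 2.93, 0.103 and 3.58, so for both clone 114 was the library that stood apart.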
